A study of Mus musculus with 20 samples.

Results

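The transcriptomes of 3 mouse iPSC lines were compared between the start of embryoid body (EB) culture and its day 3 by RNA-seq. The comparison took the libraries titled day 3 against those titled day 0 of the lines WT#1-4, Nox4-/- #5-8 and Nox4-/- #5-23, which gave 6 of the 20 libraries of the series, 3 against 3, with each line paired to itself. WT#1-4 is a wild type line and the other two lack Nox4, an NADPH oxidase that makes reactive oxygen species. All 3 are single clones that the study made from embryonic fibroblasts with retroviral pMXs vectors for Oct4, Sox2, Klf4 and c-Myc and puromycin selection, so every library here carries those vectors. The lines were kept on mitomycin C-treated CF-1 embryonic fibroblasts with LIF in serum, dissociated with TrypLE, formed into EBs as hanging drops without LIF and plated on gelatin. Another line, WT#20D-17, is labelled wild type and served only as a separate check, with its 2 libraries of day 0 and day 3. Each line has 1 library per day, so the spread measured here is that of the change between lines. The labels' protocol counts days from the plating of aggregates while the study's methods describe a hanging drop phase before plating, and the sources used here do not settle whether day 3 is the end of the drop phase or lies after plating. The 6 libraries held between 22194282 and 27707994 expected counts, and 3 counts, taken as the floor, corresponded to between 0.118 and 0.138 CPM, the unit of levels used here, which is counts scaled to the normalized size of each library. CPM is not adjusted for gene length, so levels are compared between libraries and not between genes.

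When pluripotent cells aggregate without LIF, they normally lose the naive pluripotency network (Nanog, Zfp42, Esrrb), pass through an epiblast-like state (Fgf5, Otx2, Dnmt3b) and start to express genes of the primitive streak and of the endoderm on the outside of the aggregate. Aggregates are also dense structures in which oxygen reaches the interior by diffusion. The hypoxia-inducible factors (HIFs) are transcription factors that prolyl hydroxylases keep low in oxygen and that act on genes of glycolysis, vessel growth and collagen modification.

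Nox4 (ENSMUSG00000030562, chr7:87246096-87398710, GRCm38) was examined first because it checks the labels. It had 7 counts on day 0 and 22 on day 3 in WT#1-4, 0 and 2 in Nox4-/- #5-8, and 0 and 0 in Nox4-/- #5-23. The knockout libraries lay at or under the floor and the gene did not pass the filter on low counts. In WT#20D-17 it had 64 and 165 counts.

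Of the markers that define pluripotent cells, Nanog, Zfp42 and Esrrb were at or near 0 in the 3 lines already on day 0, while Pou5f1 and Sox2 were present. These transcripts alone do not settle whether the cells of these libraries were pluripotent, as their labels say, and every value below is that of the libraries labelled with these lines. Nanog, a homeodomain factor of the naive state, was at 0.0394, 0.384 and 0.161 CPM on day 0 and at 0.877, 0.971 and 0.368 CPM on day 3 in WT#1-4, Nox4-/- #5-8 and Nox4-/- #5-23, in this order, which is kept below. Zfp42 had 0 counts in all 6 libraries, and Esrrb had at most 0.221 CPM. In WT#20D-17 the same genes stood at 404, 43.9 and 130 CPM on day 0 and 158, 22.1 and 48.2 CPM on day 3. Of 19 naive pluripotency genes, 8, 6 and 8 had at most 3 counts on day 0 in the 3 lines and 0 did in WT#20D-17, and Zfp42, Prdm14 and Dppa3 had 0 counts in all 3 lines. Of the genes carried by the vectors, 3 were higher in each of the 3 lines than in WT#20D-17 on day 0. Pou5f1 (Oct4) was at 5972, 3295 and 4756 CPM, Klf4 at 837, 693 and 896 CPM and Myc at 1386, 562 and 738 CPM. In WT#20D-17 they were at 1198, 27.8 and 53.7 CPM. Sox2 was at 34.9, 165 and 219 CPM against 206 CPM, so it was higher in Nox4-/- #5-23 alone. Counts of the cellular genes and of the vector copies cannot be told apart in this table. Sox1, a neural plate factor, was at 137, 102 and 116 CPM on day 0 in the 3 lines and at 11.9 CPM in WT#20D-17.

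**Figure D1:**
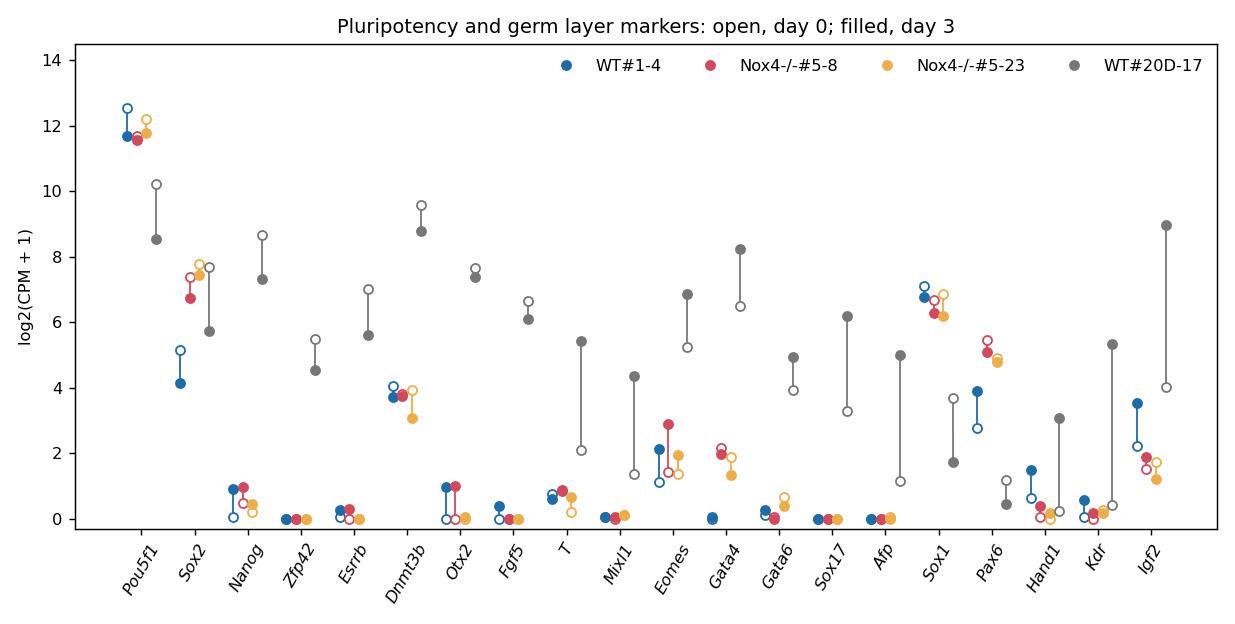
Level of pluripotency and germ layer markers as log2(CPM + 1), with day 0 as open and day 3 as filled points joined by a line, for the 3 named lines and WT#20D-17 (1 library per point). The named lines lie below 1 on this scale for Nanog, Zfp42, Esrrb, Fgf5, Mixl1, Sox17 and Afp on both days, and WT#20D-17 lies above 1.

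The genes called in the step were a limited share of those tested, and the largest changes were rises. With 3 lines, the called share is not the share of genes that changed. Of 15079 genes tested with edgeR's quasi-likelihood test with the line as a block (Benjamini-Hochberg adjusted p under 0.05), 761 rose, which is 5.05% of the genes tested, and 627 fell, which is 4.16%. The rises were larger than the falls: 432 of the risers reached a log2 fold change of 1 and 80 of the fallers did, with medians of 1.13 and -0.55. The direction was the same in each of the 3 lines for 759 of the 761 risers and for all 627 fallers. The paired test itself favours such genes, so these counts are no separate support. All day 3 libraries lay above all day 0 libraries for 410 of the risers (6.21% of all genes tested were of this kind) and below them for 411 of the fallers (11.5% of all genes tested). Without the line as a block, no gene passed in edgeR's test (1587 at an unadjusted p under 0.05). With the block, 4021 genes, or 26.7%, were at an unadjusted p under 0.05 in that test. In bulk RNA, fewer cells of a type and less RNA per cell cannot be told apart, which holds for every change given below. The share of risers among the called genes was 54.8%, and it was 70.3% after TMM normalization (783 rose and 331 fell) and 68.2% with DESeq2 (1025 rose and 479 fell), so the number of falls depends on the scaling. The balance also depends on the lines. Without Nox4-/- #5-8, 349 of 15517 genes tested rose and 560 fell, so that 38.4% of the called genes were risers. Without Nox4-/- #5-23, 682 of 15749 rose and 178 fell, and without WT#1-4, 657 of 15036 rose and 334 fell. The list counts given below with a line left out are to be read beside these totals. The median log2 change of all genes moved from -0.07 to -0.01 with TMM and 0.01 with DESeq2.

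**Figure D2:**
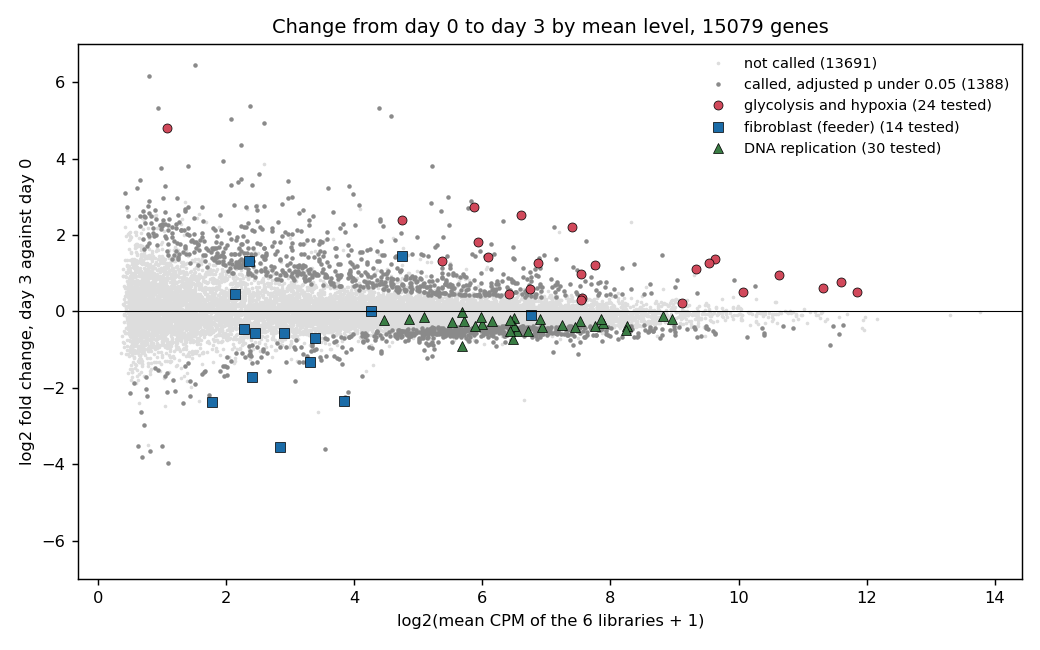
Log2 fold change of each gene tested, day 3 against day 0, against the log2 of its mean CPM over the 6 libraries plus 1. Called genes are dark grey, and members of the glycolysis and hypoxia (red circles), fibroblast (blue squares) and DNA replication (green triangles) lists are marked; all 24 glycolysis and hypoxia genes lie above 0.

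Glycolytic and hypoxia-responsive genes rose together. Of the 24 genes on this list, all of which passed the filter on low counts, 18 rose and none fell, where 5.05% of all genes tested rose and 4.16% fell. All 24 had a positive fold change, with a median log2 change of 1.16 against -0.07 over all genes tested. The summed level of the list was 12770, 11370 and 12350 CPM on day 0 and 22530, 19850 and 19090 CPM on day 3 in the 3 lines. Gapdh took the most counts of its members in each library. The share of counts from the mitochondrial genome moved from 2.14% to 1.94%, from 2.68% to 2.05% and from 2.03% to 2.05%, which gives no common direction, and its part in these changes was not tested.

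Bnip3 (chr7:138890836-138909519), a mitophagy receptor, was at 41.7, 26.4 and 18.7 CPM on day 0 and at 228, 115 and 151 CPM on day 3. Every day 3 value was above every day 0 value, with a log2 fold change of 2.52 ± 0.17 (SE, n = 3 lines, adjusted p = 0.00016). Ankrd37, an ankyrin repeat gene known as a HIF target, went from 16.1, 5.72 and 4.83 CPM to 65.1, 32.9 and 30.8 CPM (log2 2.39 ± 0.16, adjusted p = 8.41e-05). It also did not overlap between days, although it shares its locus with the opposite-strand gene Ufsp2, and the sources do not say whether counting used the strand. Egln3, a prolyl hydroxylase that marks HIF for breakdown, went from 18.9, 9.90 and 12.6 CPM to 155, 103 and 43.8 CPM (log2 2.75 ± 0.36, adjusted p = 0.029). Its rise was smallest in Nox4-/- #5-23, and without WT#1-4 its adjusted p was 0.23. Adm, the vasodilator peptide adrenomedullin, had only 5 counts over the 3 day 0 libraries and 157 on day 3, at 0.118, 0.0427 and 0.0402 CPM against 4.70, 1.19 and 0.552 CPM (log2 4.8 ± 0.57, adjusted p = 0.0011). Its highest day 3 level was in WT#1-4.

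**Figure D3:**
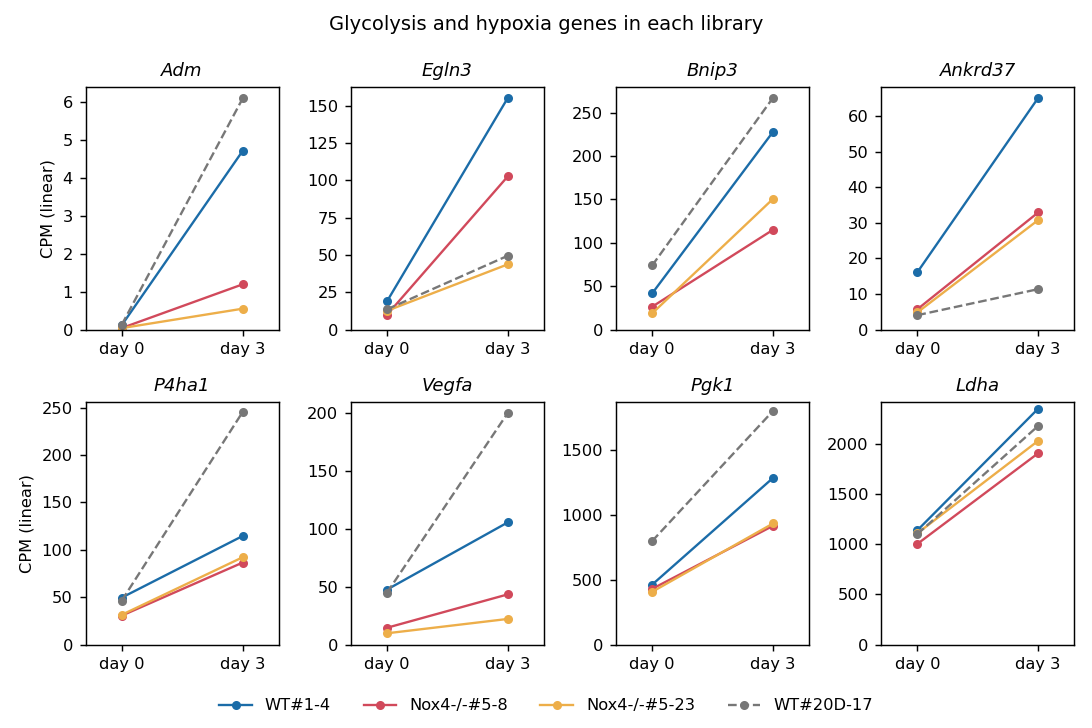
CPM on day 0 and day 3 of 8 glycolysis and hypoxia genes on linear axes from 0, with 1 line per culture (solid, the 3 named lines; dashed, WT#20D-17; 1 library per point). All lines slope up in each panel, and WT#1-4 is the highest of the named lines on day 3.

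The enzymes of the glycolytic chain had smaller fold changes at high levels. Pgk1, an ATP-forming enzyme of the pathway, went from 463, 430 and 407 CPM to 1288, 918 and 936 CPM, a log2 change of 1.26 ± 0.11 (adjusted p = 0.00021). Ldha, which turns pyruvate into lactate, went from 1140, 1004 and 1110 CPM to 2355, 1910 and 2034 CPM (log2 0.95 ± 0.10, adjusted p = 0.00045). The days did not overlap for either gene. Aldoa (log2 1.38), Pfkl (1.21), Tpi1 (1.11), Pfkp (0.98), Pkm (0.76), Eno1 (0.61), Gapdh (0.51) and Gpi1 (0.51) also rose, as did P4ha1 (1.42), Vegfa (1.31), Ndrg1 (1.26) and Ddit4 (0.59). Aldoa has 2 gene identifiers in the annotation and the one with more counts was used. The 6 members that missed the threshold were Slc2a1 (log2 2.22 ± 0.43, adjusted p = 0.072), Slc2a3 (1.83 ± 0.76, adjusted p = 0.28), Hk1, Hk2, Pgam1 and Pdk1. Slc2a1, the main glucose transporter of most cells, was at 52.1, 57.4 and 53 CPM on day 0 and at 352, 375 and 117 CPM on day 3, so its days did not overlap, and its day 3 value was lowest in Nox4-/- #5-23. When 1 line at a time was left out, Egln3, Ndrg1 (adjusted p up to 0.11), Gapdh (up to 0.13), Ddit4 (up to 0.061) and Gpi1 (up to 0.091) missed the threshold in at least one fit, without WT#1-4 in each case and for Gpi1 also without Nox4-/- #5-8.

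The stretch before the start of the 4 called members with the largest changes is shown because HIF binds a short core whose letters can be looked for. Each window holds the 250 bases before the start that RefSeq gives for GRCm38.p6, read 5′ to 3′ on the gene's strand, and capitals mark the letters ACGTG or GCGTG or their reverse complements CACGT and CACGC, of which ACGTG and CACGT overlap where CACGTG occurs. The windows are chr7:110627407-110627656 (plus strand) for Adm, chr12:54203875-54204124 (minus) for Egln3, chr7:138909507-138909756 (minus) for Bnip3 and chr8:45999851-46000100 (minus) for Ankrd37, whose RefSeq start lies 5857 bases from the outermost start of the GENCODE gene.
Adm: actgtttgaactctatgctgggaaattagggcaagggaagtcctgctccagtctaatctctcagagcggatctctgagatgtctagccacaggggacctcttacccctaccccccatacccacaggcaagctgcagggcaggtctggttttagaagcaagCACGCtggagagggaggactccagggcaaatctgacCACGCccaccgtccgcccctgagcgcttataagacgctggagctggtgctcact
Egln3: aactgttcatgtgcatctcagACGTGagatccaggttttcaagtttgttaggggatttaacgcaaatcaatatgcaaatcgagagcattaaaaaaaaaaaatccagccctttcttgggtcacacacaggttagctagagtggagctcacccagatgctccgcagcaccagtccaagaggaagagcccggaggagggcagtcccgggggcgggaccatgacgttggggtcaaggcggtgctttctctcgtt
Bnip3: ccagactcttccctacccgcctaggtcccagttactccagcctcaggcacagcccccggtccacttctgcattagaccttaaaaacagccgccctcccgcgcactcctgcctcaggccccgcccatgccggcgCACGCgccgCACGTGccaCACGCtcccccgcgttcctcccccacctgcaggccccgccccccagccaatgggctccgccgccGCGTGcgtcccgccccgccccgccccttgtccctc
Ankrd37: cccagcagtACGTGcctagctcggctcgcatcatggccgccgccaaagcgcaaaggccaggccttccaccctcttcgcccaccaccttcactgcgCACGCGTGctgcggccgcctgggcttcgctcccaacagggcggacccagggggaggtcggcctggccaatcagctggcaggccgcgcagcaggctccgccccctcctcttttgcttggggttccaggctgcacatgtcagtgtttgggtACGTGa
The motif was found 2 times in the window of Adm, 1 time in that of Egln3, 5 times in that of Bnip3 and 4 times in that of Ankrd37. The same letters are common: at least 1 match was present in 38.6% of the 32851 windows of the table and in 56.6% of the 10635 tested genes matched to a window. Among risers with a window it was 47.0% of 557, and among fallers 57.7% of 468. Among the called members of the list it was 12 of 16, or 75.0%, and among all its tested members 16 of 21, or 76.2%. These letters were chosen after the fold changes were seen, and a match is a description of the sequence and not a bound site.

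The 12 largest rises among called genes that averaged 10 or more counts were Aire, Pgk1-rs7, Barx2, Igfbp2, Gm11426, Ndufa4l2, Hif3a, A2m, Adm, Grin1, Pygl and B3galt5, with log2 changes between 6.44 and 3.81. Ndufa4l2, a protein related to a respiratory chain subunit, went from 3.98, 0.384 and 0.282 CPM to 78.2, 42.9 and 11.5 CPM (log2 5.12 ± 0.48, adjusted p = 0.010). Its days did not overlap, its locus is shared with the abundant opposite-strand gene Shmt2, and its adjusted p without Nox4-/- #5-23 was 0.28. Hif3a, a HIF family member, went from 0.276, 0.213 and 0.0402 CPM to 12.3, 5.08 and 1.33 CPM (log2 5.04 ± 0.39, adjusted p = 0.00012), and Pygl, liver glycogen phosphorylase, from 0.591, 0.299 and 0.161 CPM to 7.33, 6.80 and 2.11 CPM (log2 3.93 ± 0.36, adjusted p = 0.00025). Both were above every day 0 library in all lines, with the smallest day 3 level in Nox4-/- #5-23. In a list of 10 HIF pathway genes added after the values were seen, Hif3a, Epas1 (HIF-2α, log2 1.13 ± 0.16) and Egln3 rose and no member fell, where 5.05% of all genes tested rose. The median log2 change of this list was 0.13, and 6 of its 10 members had a positive change.

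Igfbp2, an insulin-like growth factor binding protein, went from 0.394, 1.37 and 0.805 CPM to 58.1, 49.2 and 10.3 CPM (log2 5.34 ± 0.69, adjusted p = 0.033). Barx2, a homeobox gene of epithelia, went from 0.315, 0.171 and 0.0805 CPM to 8.41, 12.2 and 3.86 CPM (log2 5.37 ± 0.38, adjusted p = 8.41e-05). A2m, a protease inhibitor, went from 0.315, 0.470 and 0.121 CPM to 9.21, 17.4 and 2.67 CPM (log2 4.92 ± 0.32, adjusted p = 8.08e-05). The days did not overlap for any of the 3 genes, and the lowest day 3 level was again that of Nox4-/- #5-23. Aire, Pgk1-rs7 and Gm11426 had at most 3 counts over the day 0 libraries. Their ratios of summed counts were 92.9 (95% exact counting interval 31.5 to 454), 106 (18.6 to 4230) and 44.2 (14.8 to 217). Pgk1-rs7 is annotated as a processed pseudogene related to Pgk1, and reads of the 2 can be divided between them by the counting. Leaving out Nox4-/- #5-8 gave an adjusted p of 0.052 for Pgk1-rs7, and leaving out Nox4-/- #5-23 gave 0.28 for Ndufa4l2. The other 10 of the 12 passed with any single line left out, although Igfbp2 missed the threshold with no filter on low counts.

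Some collagen-modifying enzymes, keratins and laminins rose as well. These 3 lists were added after the values were seen. Of 12 collagen-modifying enzymes tested, 5 rose and none fell (Loxl2, Loxl4, P4ha2, P4ha1 and Plod1), with a median log2 change of 0.45 over the list, where 5.05% of all genes tested rose and their median was -0.07. For lists picked in this way the counts are a description. Loxl2 (chr14:69609068-69695834), a lysyl oxidase that cross-links collagen, went from 16.9, 5.81 and 5.47 CPM to 139, 56.7 and 33.6 CPM (log2 2.99 ± 0.15, adjusted p = 1.74e-05). Its days did not overlap, and it passed with any line left out. Loxl4 went from 6.26, 7.56 and 4.02 CPM to 23.1, 59.4 and 21.2 CPM (log2 2.42 ± 0.21) and P4ha2, a collagen prolyl hydroxylase, from 2.17, 3.16 and 2.17 CPM to 13.8, 9.98 and 8.37 CPM (log2 2.09 ± 0.26). Among the laminin chains, which build basement membranes, Lamb3 (log2 2.72), Lama2 (1.51) and Lamb2 (0.37) were among the 4 of 9 tested that rose, and none fell. The count was 2 without WT#1-4 (657 of 15036 genes tested rose) and 1 without Nox4-/- #5-8 (349 of 15517). Without Nox4-/- #5-8 the adjusted p was 0.066 for Lamb3, 0.12 for Lama2 and 0.064 for Plod1, and Lamb2 missed the threshold with any line left out (up to 0.28).

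Among keratins, the filaments of epithelial cells, 4 of 11 passed the filter on low counts and 3 rose, against 5.05% of all genes tested, namely Krt19, Krt8 and Krt17 (log2 2.04). Krt17 had 0 counts in Nox4-/- #5-23 on both days, and its call was lost with TMM normalization, with DESeq2 and without WT#1-4 (adjusted p = 0.17). Krt19 went from 25.9, 9.69 and 5.67 CPM to 153, 102 and 37.5 CPM (log2 2.89 ± 0.17, adjusted p = 8.41e-05), with no overlap of days. Krt8 went from 5.16, 1.41 and 0.0402 CPM to 19.4, 9.67 and 0.368 CPM (log2 2.34 ± 0.30, adjusted p = 0.0017). The lines differed so much in Krt8 that the day 3 value of Nox4-/- #5-23 lay below the day 0 values of the other two. In the list of 17 epithelial and mesenchymal genes, 13 were tested, 6 rose and none fell, where 5.05% of all genes tested rose: Krt8, Cdh1, Esrp1, Epcam, Fn1 and Vim. The number of risers was 3 without WT#1-4 (657 of 15036 genes tested rose) and 1 without Nox4-/- #5-8 (349 of 15517). Cdh1 (E-cadherin), the adhesion molecule of epithelia, went from 19.6, 32.6 and 20.7 CPM to 51.5, 86.0 and 31.9 CPM (log2 1.15 ± 0.17, adjusted p = 0.0050), and Epcam from 4.61, 6.57 and 6.03 CPM to 14.7, 13.0 and 7.63 CPM (log2 1.00 ± 0.26, adjusted p = 0.042). The fold change of both was smallest in Nox4-/- #5-23. Vim and Fn1, mesenchymal genes of the same list, rose by 0.48 ± 0.11 and 0.67 ± 0.15, and Cdh2 (N-cadherin) had a change of -0.39 ± 0.14 (adjusted p = 0.11). Without Nox4-/- #5-8 the adjusted p was 0.056 for Cdh1, 0.16 for Epcam, 0.053 for Esrp1, 0.095 for Fn1 and 0.060 for Vim. Without WT#1-4 it was 0.15 for Epcam, 0.052 for Esrp1 and 0.13 for Vim, and without Nox4-/- #5-23 it was 0.059 for Fn1.

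**Figure D4:**
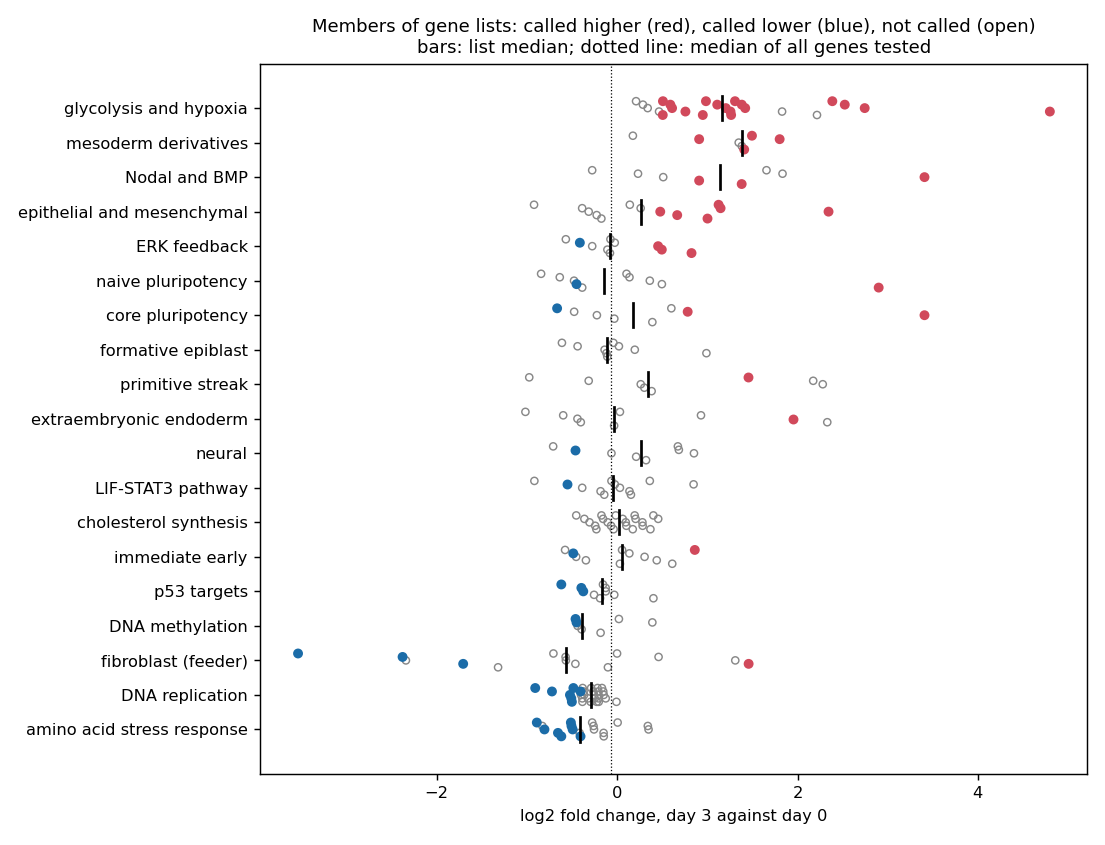
Log2 fold change, day 3 against day 0, of each tested member of 19 gene lists (points; red, called higher; blue, called lower; open, not called), with the list median as a bar and the median of all genes tested as a dotted line. The glycolysis and hypoxia list holds 18 red points and no blue one, and the blue points of the DNA replication and amino acid lists lie between 0 and -1.

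Genes of Nodal, BMP and ERK signalling changed in part. Of 8 tested members of the Nodal and BMP list (13 genes), 3 rose and none fell, where 5.05% of all genes tested rose and 4.16% fell. Tdgf1 (Cripto), the co-receptor of Nodal, went from 0.669, 2.82 and 0.282 CPM to 8.73, 24.8 and 3.36 CPM (log2 3.41 ± 0.26, adjusted p = 0.0001). Id1, a direct target of BMP that blocks differentiation factors, went from 46.9, 132 and 68.2 CPM to 182, 262 and 158 CPM (log2 1.38 ± 0.18, adjusted p = 0.0066), and the ligand Bmp4 from 4.77, 9.95 and 4.95 CPM to 11.7, 12.3 and 11.0 CPM (log2 0.91 ± 0.23, adjusted p = 0.038). The days did not overlap in any of them, and Bmp4 missed the threshold without WT#1-4 or without Nox4-/- #5-23 (adjusted p up to 0.11). Nodal itself and its targets Lefty1, Lefty2 and Cer1 did not pass the filter on low counts. Of 10 ERK feedback genes, Dusp6 (log2 0.82 ± 0.11), Dusp4 (0.50 ± 0.11) and Etv1 (0.45 ± 0.11) rose and Spry2 fell by 0.41 ± 0.11. Dusp6, a phosphatase of ERK, went from 49.2, 42.3 and 34.2 CPM to 81.5, 71.5 and 68.0 CPM (adjusted p = 0.0024). The call of Spry2 was lost with TMM normalization and with DESeq2. It also missed the threshold with any line left out (adjusted p up to 0.24), as did Etv1 (up to 0.22), and Dusp4 did without Nox4-/- #5-8 or without Nox4-/- #5-23 (up to 0.13).

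Pluripotency genes changed in both directions in the step. Of 19 naive genes, 10 were tested, Dppa5a rose (log2 2.90 ± 0.62, adjusted p = 0.021) and Tet2, a DNA demethylase, fell by 0.45 ± 0.11. Dppa5a, a marker of pluripotent cells, was at 0.433, 0.128 and 0 CPM on day 0 and at 2.23, 0.751 and 0.827 CPM on day 3, levels far under the 950 CPM of WT#20D-17 on day 0. Of 10 core genes, 8 were tested: Tdgf1 and Trim71 (log2 0.78 ± 0.17) rose and Sox2 fell, where 5.05% of all genes tested rose and 4.16% fell. The median log2 change was -0.14 for the naive and 0.18 for the core genes, and neither has a stable sign: with 1 line left out they lay between -0.51 and 0.16 and between -0.06 and 0.56. Sox2 was at 34.9, 165 and 219 CPM on day 0 and at 16.9, 105 and 173 CPM on day 3 (log2 -0.67 ± 0.14, adjusted p = 0.019). It was lower on day 3 in each line, while the spread between lines was wider than the step. Pou5f1 went from 5972, 3295 and 4756 CPM to 3275, 3042 and 3486 CPM (log2 -0.48 ± 0.14, adjusted p = 0.064). Among genes too low for the filter, Lin28a and Otx2 had 0 counts in all 3 lines on day 0 and 111 and 48 counts over the 3 lines on day 3. Otx2 was at 0.956, 1.02 and 0.0460 CPM on day 3 and Lin28a at 3.83, 0.530 and 0.138 CPM. None of the 9 tested formative epiblast genes passed the threshold, and Fgf5 had 8 counts in 1 library and 0 in the other 5. Without Nox4-/- #5-8 the adjusted p was 0.088 for Sox2, 0.090 for Dppa5a and 0.071 for Trim71, and without WT#1-4 it was 0.069 for Sox2 and 0.086 for Trim71. Tet2 missed the threshold with any line left out (up to 0.27).

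Of the germ layer lists, that of mesoderm had the larger share of risers in the fit with all 3 lines, and the others had 1 call each. The counts of these others also depend on the lines. Without Nox4-/- #5-23, 3 of 8 primitive streak genes rose (682 of 15749 genes tested did), and without Nox4-/- #5-8 none did (349 of 15517). Without WT#1-4, 2 of 10 extraembryonic endoderm genes rose and 2 of 8 neural genes fell, where 657 of 15036 genes tested rose and 334 fell. Of 19 primitive streak genes, 8 were tested and 1 rose: Eomes, a T-box factor of streak and endoderm, went from 1.18, 1.71 and 1.57 CPM to 3.43, 6.40 and 2.90 CPM (log2 1.45 ± 0.31, adjusted p = 0.021). Its days did not overlap, and it missed the threshold without Nox4-/- #5-8 (adjusted p = 0.12). T (Brachyury) was at 0.709, 0.854 and 0.161 CPM on day 0 and at 0.518, 0.795 and 0.598 CPM on day 3, and Mixl1 at most at 0.0919 CPM. Of 20 extraembryonic endoderm genes, 9 were tested and Apoe, a lipid carrier that many cell types make, was the one that rose (25.1, 20.8 and 5.71 CPM to 102, 64.7 and 26.8 CPM, log2 1.95 ± 0.14, adjusted p = 8.41e-05). Sox17 and Ttr had 0 counts in all 6 libraries, and Gata6 was at most at 0.603 CPM. Gata4 was at 0, 3.46 and 2.70 CPM on day 0 and at 0.0399, 2.91 and 1.52 CPM on day 3 (log2 -0.44 ± 0.43, adjusted p = 0.55). Sparc, a matrix protein of the same list, missed the threshold (log2 2.33 ± 0.52, adjusted p = 0.10). In the mesoderm list of 15 genes, 4 of 7 tested members rose, Acta2, Cldn5, Pdgfra and Bmp4, where 5.05% of all genes tested rose. All 7 had a positive change, with a median log2 change of 1.38, while the other 8 genes of the list did not pass the filter on low counts. Without WT#1-4 the count was 1 of 5 (657 of 15036 genes tested rose) and without Nox4-/- #5-8 it was 2 of 7 (349 of 15517). Pdgfra was at 2.21, 0.768 and 0.885 CPM on day 0 and at 7.57, 1.46 and 2.34 CPM on day 3 (log2 1.41 ± 0.32), and Cldn5 was above 1 CPM in WT#1-4 alone, at 12.6 and 35.8 CPM. Of 8 tested neural genes, Sox1 fell, from 137, 102 and 116 CPM to 109, 76.7 and 72.8 CPM (log2 -0.47 ± 0.11, adjusted p = 0.031), and Nes had a change of 0.32 ± 0.13 (adjusted p = 0.14). A further list held the 22 genes with RT-PCR primers, of which 13 were tested here and 3 rose (Eomes, Cldn5 and Pdgfra). Without WT#1-4, 1 of 12 rose and 1 fell, where 657 of 15036 genes tested rose and 334 fell. Without Nox4-/- #5-8, 1 of 14 rose (349 of 15517 genes tested), and without Nox4-/- #5-23, 4 of 15 did (682 of 15749). Without Nox4-/- #5-8 the adjusted p was 0.089 for Acta2, 0.056 for Pdgfra and 0.069 for Sox1, without WT#1-4 it was 0.18 for Pdgfra, and without Nox4-/- #5-23 it was 0.24 for Sox1.

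The 12 largest falls by the same rule were Sparcl1, Kcne4, Gm44126, Spp1, Col3a1, Mmp3, Cd36, Rgs5, Emid1, Prss12, Pdgfrb and Pla2g4d, with log2 changes between -3.98 and -2.23. Col3a1 (chr1:45311538-45349706), a fibrillar collagen, was at 24.9, 4.35 and 4.95 CPM on day 0 and at 2.19, 0.662 and 0.138 CPM on day 3 (log2 -3.54 ± 0.36, adjusted p = 0.00071). Spp1 (osteopontin) went from 30.2, 12.3 and 16.3 CPM to 3.47, 1.06 and 0.781 CPM (log2 -3.59 ± 0.26, adjusted p = 0.0001), and Mmp3, a matrix protease, from 3.47, 0.939 and 1.09 CPM to 0.279, 0.0883 and 0.0919 CPM (log2 -3.51 ± 0.48, adjusted p = 0.0023). Every day 3 library was below every day 0 library for these genes, and WT#1-4 was the highest line on day 0.

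The list of 18 fibroblast genes, chosen as markers of the feeder cells, moved in part. Of 14 members tested, Col3a1, Pdgfrb (log2 -2.38 ± 0.39) and Postn (-1.71 ± 0.34) fell and S100a4 rose (1.46 ± 0.14), where 4.16% of all genes tested fell and 5.05% rose. The list median was -0.57 against -0.07 over all genes, and it was -0.23 without Nox4-/- #5-23 and -0.82 without Nox4-/- #5-8. Its summed level was 566, 99.7 and 87.6 CPM on day 0 and 352, 148 and 66.2 CPM on day 3, so it was higher on day 3 in Nox4-/- #5-8 and lower in the other two lines. Fbn1 took the most counts of the members in WT#1-4 (338 CPM on day 0 and 199 CPM on day 3). In Nox4-/- #5-8 and Nox4-/- #5-23 the member at 0 counts on day 0 was Lox, on day 3 Fap was at 0 in both, and Lum and Twist2 were at 0 in Nox4-/- #5-23. Col1a1, the main collagen of fibroblasts, was at 23.6, 3.76 and 8.41 CPM on day 0 and at 14.2, 3.05 and 0.689 CPM on day 3 (log2 -1.32 ± 0.71, adjusted p = 0.34). Twist1, a mesenchymal transcription factor, was at 32.1, 10.5 and 13.3 CPM on day 0 and at 26.5, 13.1 and 13.1 CPM on day 3. The part of feeder cells in the falls was not tested. Without Nox4-/- #5-8 the adjusted p of Postn was 0.073, and of the 12 largest falls Sparcl1, Kcne4, Gm44126, Cd36, Rgs5 and Emid1, all at under 5 CPM, missed the threshold as well (adjusted p up to 0.12). Emid1 also missed it without Nox4-/- #5-23 (0.055) and with DESeq2 (0.073), and Gm44126 with TMM normalization (0.053).

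**Figure D5:**
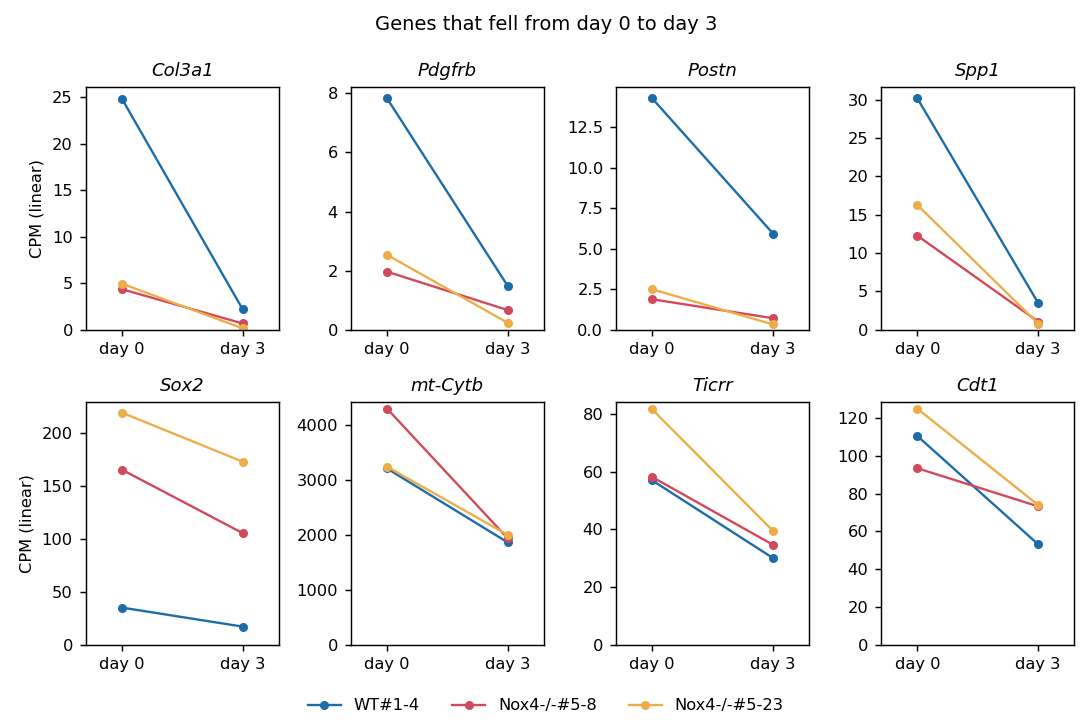
CPM on day 0 and day 3 of 8 genes that fell, on linear axes from 0, with 1 line per culture of the 3 named lines and 1 library per point. Col3a1, Pdgfrb, Postn and Spp1 start highest in WT#1-4, while mt-Cytb, Ticrr and Cdt1 start at similar levels in the lines and lie lower on day 3 in each.

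Smaller falls were found among genes of DNA replication and amino acid supply. In lists added after the values were seen, 7 of 30 DNA replication genes fell and none rose (median log2 change -0.29), and 8 of 18 genes of the amino acid stress response fell and none rose (median -0.41). Over all genes tested 4.16% fell and the median was -0.07. Ticrr, which helps to load the replication machinery, went from 57.0, 58.1 and 81.6 CPM to 30.0, 34.6 and 39.4 CPM (log2 -0.91 ± 0.12, adjusted p = 0.0016), and the licensing factor Cdt1 from 111, 93.6 and 125 CPM to 53.2, 73.3 and 74.0 CPM (log2 -0.72 ± 0.14, adjusted p = 0.014). Atf5, a stress response factor, went from 48.0, 45.7 and 48.8 CPM to 30.3, 23.4 and 23.6 CPM (log2 -0.89 ± 0.13, adjusted p = 0.0027), and Slc7a5, a transporter of large neutral amino acids, from 276, 166 and 259 CPM to 112, 131 and 151 CPM (log2 -0.81 ± 0.17, adjusted p = 0.030). The days did not overlap for these 4 genes. Of 20 cytosolic aminoacyl-tRNA synthetases, Vars, Yars, Wars and Mars fell and none rose. Of the 13 proteins encoded in mitochondrial DNA, mt-Cytb went from 3211, 4303 and 3244 CPM to 1861, 1935 and 1998 CPM (log2 -0.88 ± 0.11, adjusted p = 0.0017), mt-Nd4 also fell (-0.57 ± 0.10) and mt-Nd3 rose (0.91 ± 0.14). Without Nox4-/- #5-23 the adjusted p was 0.053 for Slc7a5, 0.19 for Wars and 0.26 for Mars, without WT#1-4 it was 0.11 for Wars and 0.12 for Mars, and without Nox4-/- #5-8 it was 0.061 for mt-Nd3. The number of replication genes that fell was 2 without Nox4-/- #5-23, and that of amino acid genes was 3 without WT#1-4, 4 without Nox4-/- #5-8 and 3 without Nox4-/- #5-23. Of the synthetases 2 fell without WT#1-4 and 2 without Nox4-/- #5-23. Over all genes tested, 334 of 15036 fell without WT#1-4, 560 of 15517 without Nox4-/- #5-8 and 178 of 15749 without Nox4-/- #5-23. After TMM normalization 6 replication genes, 5 amino acid genes and 2 synthetases still fell.

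The remaining lists held at most 3 called genes each, where 5.05% of all genes tested rose and 4.16% fell, with a median log2 change of -0.07. In the LIF-STAT3 list 1 of 12 genes fell (Pim1, log2 -0.55 ± 0.14) and none rose, and Socs3, the feedback inhibitor of LIF, had a change of 0.85 ± 0.30 (adjusted p = 0.12). Of 10 p53 targets Sesn2, Phlda3 and Mdm2 fell (median log2 change -0.17), of 7 tested DNA methylation genes Dnmt1 and Tet2 fell (median -0.39), and of 11 immediate early genes Fos rose (log2 0.86 ± 0.18) and Ier2 fell. Piwil2 was the one of 4 tested germline genes that rose (log2 1.25 ± 0.30). None of 22 cholesterol synthesis genes, none of 4 tested Wnt feedback genes and not the 1 tested NADPH oxidase gene passed, and no two-cell-like gene passed the filter on low counts. The calls of Pim1, Tet2, Dnmt1, Phlda3, Mdm2 and Ier2 were lost after TMM normalization. With a line left out these 6 missed the threshold in at least one fit, as did Sesn2 (adjusted p = 0.057 without Nox4-/- #5-8), Fos (0.069 without the same line) and Piwil2 (0.11 without it).

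The question of whether the step differed with Nox4 was put to a term for the Nox4-/- lines in the same fit. With 1 wild type and 2 Nox4-/- lines, genotype and line cannot be told apart, and WT#1-4 has no spread of its own in this fit. It is assumed to vary like the 2 Nox4-/- lines, which leave 1 residual degree of freedom, so the differences are given as values of these 3 clones. The term passed in 42 genes, 0.279% of the genes tested, with 18 more positive in the Nox4-/- lines and 24 more negative. No gene passed without the line as a block, and 25 did with DESeq2, of which 20 were shared. Slc2a3, the high-affinity glucose transporter, was at 15.2, 36.3 and 16.7 CPM on day 0 and at 165, 101 and 25.3 CPM on day 3. The step of the Nox4-/- lines minus that of WT#1-4 was -2.39 log2 units, and Nox4-/- #5-23 lay furthest from WT#1-4. The BMP targets Id2 and Id3 also had the larger step in WT#1-4, and Id2 was at 3.66, 26.7 and 12.0 CPM on day 0 and at 26.4, 62.2 and 25.6 CPM on day 3 (difference -1.69). Sparc had the larger step in the Nox4-/- lines, at 297, 72.9 and 40.6 CPM on day 0 and 677, 424 and 393 CPM on day 3 (difference 1.72).

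The separate line WT#20D-17, which entered no fit, had the same sign for most called genes. Of the 761 risers, 502 (66.0%) were higher on its day 3, as were 40.6% of all genes tested, and of the 627 fallers 481 (76.7%) were lower, as were 58.1% of all genes tested. With 1 library per day these values have no replicate check. In the glycolysis and hypoxia list 23 of 24 genes were higher on day 3 in this line, 12 of them by at least 1 log2 unit, a change that 6.61% of its 17038 genes with 10 counts in either library reached upward and 4.57% downward. The exception was Pdk1, at 296 CPM on day 0 and 146 CPM on day 3. Bnip3 went from 73.9 to 267 CPM there, Pgk1 from 800 to 1806 CPM, Loxl2 from 46.0 to 256 CPM and Krt19 from 6.44 to 109 CPM. The fibroblast genes that fell in the named lines, Col3a1, Pdgfrb and Postn, were higher on its day 3: Col3a1 went from 0.908 to 9.93 CPM, Pdgfrb from 1.04 to 6.33 CPM and Postn from 0.692 to 3.19 CPM. S100a4, which rose in the named lines, was at 0.0432 and 0.538 CPM there, and the summed fibroblast list went from 46.2 to 224 CPM. Risers of the named lines that were lower on day 3 in WT#20D-17 included Tdgf1 (705 and 233 CPM), Dppa5a (950 and 237 CPM), Dusp6 (131 and 77.4 CPM), Etv1 (35.9 and 12.4 CPM), Pgk1-rs7 (9.30 and 0.124 CPM) and Barx2 (0.476 and 0.207 CPM).

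WT#20D-17 also had streak, endoderm and mesoderm genes that were low in the named lines. T went from 3.29 CPM (95% Wilson interval 2.63 to 4.11) to 42.1 CPM (39.6 to 44.7), Sox17 from 8.78 to 71.7 CPM, Afp from 1.21 to 30.9 CPM, Kdr from 0.346 to 39.7 CPM and Igf2 from 15.2 to 499 CPM. Of the 18 primitive streak genes detected in it, 13 were higher on day 3 by at least 1 log2 unit. Of 20 extraembryonic endoderm genes, 11 were. Over its 17038 genes with 10 counts in either library, 6.61% were higher by that much and 4.57% were lower. For the named lines this count is not given, because it covered only genes with 10 counts in WT#20D-17. Of 19 naive pluripotency genes, 10 were lower by at least 1 log2 unit on day 3 in WT#20D-17, where 4.57% of its genes were. The same count is not set beside it for the named lines, where many of these genes were already too low on day 0 to fall by that much on this scale.

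The later libraries of the named lines give the levels after day 3. The day is that of the sample titles, and the last one, day 14, is not among the days that the labels' protocol lists. Bnip3 stood at 195, 252 and 309 CPM on day 5 and at 714, 456 and 420 CPM on day 14, above the day 3 level in 2 and in 3 of the 3 lines. Krt19 stood at 136, 292 and 136 CPM on day 5 and at 1198, 866 and 348 CPM on day 14. Ldha stayed between 1858 and 3213 CPM in all libraries of days 3 to 14 of these lines.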

How the data were processed

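The study's authors made stranded TruSeq mRNA libraries, sequenced both ends, used fastx_toolkit for trimming and STAR 2.6.0c for mapping to mm10, and deposited RSEM 1.3.1 expected counts per gene, not normalized; tool versions are those of the submitters' processing notes, and bcl2fastq is also named there. Here the expected counts were rounded to whole numbers and scaled by upper quartile factors over all 20 libraries, which also give the CPM values. Gene names and positions came from GENCODE M21 of GRCm38 (55480 of 55573 identifiers found). The step was tested with edgeR 4.0.16 (quasi-likelihood, R 4.3.3, after its filter on low counts) as line plus day, with 2 residual degrees of freedom, and errors are its SE. limma 3.58.1, DESeq2 1.42.0 and Python 3.11.15 were also used. The edgeR, limma and DESeq2 fits of line plus day were run on simulated data. So were the edgeR and DESeq2 fits with the term for the Nox4-/- lines, and the other alternatives were not. Lines pair the libraries because the clone is the same: correlations of deviations from the day means were 0.827, 0.668 and 0.769 within lines and between -0.647 and -0.0514 across lines. The deviations cancel over the lines on each day, so the negative values across lines follow in part from those within lines and are no separate support.

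Named genes were 30 key genes, Nox4 among them, the 12 largest called rises and falls (same direction in all 3 lines, 10 or more counts on average), and up to 4 called members per list plus those called against its majority. Myc and any other list member named were chosen after their values were seen. Aldoa has 2 identifiers, and the one with more counts was used. The members and the 22 lists were chosen with earlier results of these data known, and 8 further lists were added after the values were seen. No dates or batches are given in the labels. Single values of WT#20D-17 were compared as log2(CPM + 1). Intervals cover counting error only. The p-values of the step measure how the step varies between 3 clones, because the line block takes out differences in level. edgeR moderates this spread over genes, with a median of 8.5 prior degrees of freedom. Results for some list members are not reported here.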

Additional observations from a re-analysis of the deposited data

Results flagged for a closer look

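The list genes given below are those in which an edgeR quasi-likelihood term for the Nox4-/- lines passed, adjusted over all genes. The term had 1 residual degree of freedom and rests on the assumption that WT#1-4, a single line, varies like the Nox4-/- lines. It passed in none of them without the line as a block. The difference, Nox4-/- minus WT#1-4 in log2 units, was -2.39 for Slc2a3, -1.96 for Slc7a11, -1.69 for Id2, -1.50 for Pax6 and -1.40 for Id3, and 1.72 for Sparc and 1.72 for Krt20. Slc7a11, the cystine transporter, was at 8.55, 56.2 and 54.9 CPM on day 0 and at 27.9, 46.2 and 47.4 CPM on day 3 in WT#1-4, Nox4-/- #5-8 and Nox4-/- #5-23. Pax6, a neural and eye factor, was at 5.87, 42.6 and 29.1 CPM on day 0 and at 14.1, 33.5 and 26.7 CPM on day 3. Krt20, a keratin, was at 260, 17.6 and 6.56 CPM on day 0 and at 310, 56.4 and 32.3 CPM on day 3. With 1 wild type line, a difference of clones and one of genotype cannot be told apart. The other wild type line, WT#20D-17, did not always go with WT#1-4. Its log2 change was 1.67 for Slc2a3, where WT#1-4 had 3.36 and the Nox4-/- lines 1.45 and 0.57. For Id3 it was 1.24, against 2.71 and against 1.20 and 1.52. For Krt20 it was 1.76, against 0.25 and against 1.63 and 2.14, and for Pax6 -0.72, against 1.14 and against -0.34 and -0.12. It lay nearer to WT#1-4 for Id2 (2.19 and 2.56), Slc7a11 (1.12 and 1.60) and Sparc (1.18 and 1.18).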

How the results depend on the processing

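Under edgeR's quasi-likelihood test 1388 genes passed. At an adjusted p under 0.01 it was 307 (246 rose, 61 fell), and with no filter on low counts 2599 (1327 and 1272 of 27986). With no replicate block, so without the pairing by line, 0 passed in either direction for the step (1587 at an unadjusted p under 0.05), 0 in the lists and 0 for the interaction (184). The fixed lists gave 20 risers and 2 fallers at 0.01, against 40 and 13. TMM normalization left 331 fallers (330 of them shared) and 6 in the lists, and no filter on low counts gave 26 fallers in the lists. Leaving out 1 line gave 860 to 991 genes, 349 to 682 risers and 178 to 560 fallers, and 27 to 47 risers and 7 to 8 fallers in the lists. Without Nox4-/- #5-8 fallers outnumbered risers, which turns the balance; the cause was not tested. Of 83 called named genes, 45 missed the threshold in at least one alternative other than the fit without the block. The interaction gave 25 genes with DESeq2 (20 shared) and 141 with no filter on low counts. Without a Nox4-/- line it has no residual degrees of freedom, so it could not be tested. Of the 299 called genes changing by at least 1 log2 unit in WT#20D-17, 80.9% moved the same way, against 70.8% of all called genes. By direction it was 82.5% of 229 risers and 75.7% of 70 fallers. Of the 1332 tested genes changing by that much there, 60.6% were higher on day 3 and 39.4% lower.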
